A study of Mus musculus with 12 samples.

Results

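The livers of adult male mice were examined for 9 transcription factors that set and keep hepatocyte identity, namely Hnf4a, Cebpa, Cebpb, Foxa1, Foxa2, Foxa3, Onecut1, Prox1 and Nr5a2. The genes were taken by name from the 52636 genes counted in each library, with earlier results of these data known, and all 9 were among the 12453 genes that passed the filter on low counts. The mice were C57BL/6J males of 16 weeks, 6 born to mothers on a vitamin D deficient diet (VDD-F1) and 6 born to mothers on a nutrient-matched vitamin D sufficient diet (VDS-F1). The mothers ate the assigned diet before mating and through pregnancy, the sires ate the control diet, and the deficient mothers were also given calcium gluconate. After delivery every mother, and after weaning every F1 mouse, was on the sufficient diet. The groups therefore differ in maternal diet and in the calcium supplement. One library was made per liver, and the litters of the mice are not given in the sources used here, so p-values measure the spread between these mice.

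In the liver these factors work as a network in which members bind each other's promoters and enhancers. Foxa1, Foxa2 and Foxa3 are forkhead pioneer factors that open chromatin during liver specification, and Hnf4a is the nuclear receptor that holds the differentiated hepatocyte program in place. Cebpa drives metabolic genes of the quiescent hepatocyte, while Cebpb responds to injury and inflammation. Onecut1 (HNF6) acts in hepatocyte and bile duct development, Prox1 is a homeobox factor of hepatoblasts, hepatocytes and lymphatic endothelium, and Nr5a2 (LRH-1) is a nuclear receptor of bile acid and cholesterol genes.

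The promoters of Hnf4a, Cebpa and Foxa1 are shown because these members were lower together in one set of VDD-F1 mice, described further on, and because an antisense RNA lies over the upstream start of Hnf4a. That RNA ends before the downstream Hnf4a start, and counts per gene do not tell which start was used. Each line gives the 250 bases before a RefSeq transcription start on GRCm38.p6, 5′ to 3′ on the strand of the gene. Capitals mark a match to a motif.
Hnf4a upstream start, chr2:163506607-163506856, plus strand: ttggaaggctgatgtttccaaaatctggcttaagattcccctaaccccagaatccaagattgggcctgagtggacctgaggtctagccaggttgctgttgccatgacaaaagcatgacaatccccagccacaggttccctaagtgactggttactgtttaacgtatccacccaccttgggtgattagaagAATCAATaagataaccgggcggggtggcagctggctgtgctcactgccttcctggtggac
Hnf4a downstream start, chr2:163546905-163547154, plus strand: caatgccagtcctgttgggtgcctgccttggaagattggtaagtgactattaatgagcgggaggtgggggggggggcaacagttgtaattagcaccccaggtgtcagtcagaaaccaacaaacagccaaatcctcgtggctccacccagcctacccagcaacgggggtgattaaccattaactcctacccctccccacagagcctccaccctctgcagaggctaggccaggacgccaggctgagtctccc
Cebpa, chr7:35119043-35119292, plus strand: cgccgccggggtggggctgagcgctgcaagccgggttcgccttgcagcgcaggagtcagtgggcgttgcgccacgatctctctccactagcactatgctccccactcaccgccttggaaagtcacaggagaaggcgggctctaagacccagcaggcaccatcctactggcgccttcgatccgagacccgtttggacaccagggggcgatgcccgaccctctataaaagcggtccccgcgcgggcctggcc
Foxa1, chr12:57546112-57546361, minus strand: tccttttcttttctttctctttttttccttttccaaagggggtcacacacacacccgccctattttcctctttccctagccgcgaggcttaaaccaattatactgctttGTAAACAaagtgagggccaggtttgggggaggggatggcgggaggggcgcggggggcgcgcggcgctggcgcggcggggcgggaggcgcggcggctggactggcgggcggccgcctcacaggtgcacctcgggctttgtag

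RefSeq gave 14 start sites for the 9 members, and the 250 bases before each with the 50 after it were searched on both strands for core motifs that include those of several members. The capitals in the Hnf4a upstream promoter are the reverse complement of ATTGATT, an ONECUT core motif, 60 bases before the start. That motif was present in 2 of the 14 member promoters and in 2.86% of all 32851 promoters of the same length. The capitals in the Foxa1 promoter are the reverse complement of TGTTTAC, a FOXA core motif, 141 bases before the start, which 3.65% of all promoters hold. No match was found in the windows of the downstream Hnf4a start or of Cebpa. Among the other motifs searched were TGTTTGC (FOXA), ATTGACT (ONECUT), TTGCNNAA (C/EBP), CAAAGTCCA (HNF4) and TCAAGGNCA (NR5A2), where N is any base. The matches found do not overlap each other. Among further matches, TGTTTGC stood in 1 Prox1 window, ATTGATT and ATTGACT in 1 Foxa2 window each, and TTGCNNAA in 1 Nr5a2 window. A match is a string of letters and was not tested as a binding site.

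All 9 factors were expressed in every liver. Levels between genes were compared as TPM (transcripts per 1000000 transcripts), which divide the count by exon length. Cebpa was at 356 ± 79.5 TPM (SD, n = 12), Hnf4a at 268 ± 60.4 and Cebpb at 239 ± 69.5. These 3 formed the upper tier, and the TPM of Cebpb in its lowest mouse was above that of Foxa3 in its highest. Foxa3 followed at 77.6 ± 28.6 TPM (SD, n = 12) and Prox1 at 47.1 ± 17.0, an order that turned when coding length was used (99.9 ± 25.4 and 121 ± 29.6 TPM). Foxa2 at 26.1 ± 7.98 TPM, Nr5a2 at 24.0 ± 6.22 and Onecut1 at 21.7 ± 12.1 could not be put in order, since Foxa2 exceeded Nr5a2 in 5 of 12 mice and Nr5a2 exceeded Onecut1 in 5 of 12. Foxa1 had the lowest mean, 14.2 ± 3.65 TPM, but its range overlapped that of Onecut1, which exceeded it in 9 of 12 mice. Cebpa exceeded Hnf4a in 11 of 12 mice, but Hnf4a exceeded Cebpb in only 7 of 12. The place of Onecut1 is uncertain because a lincRNA on the same strand, Gm20649, shares 2171 of its 4113 exon bases, and STAR treats fragments there as ambiguous and gives them to neither gene. With the unshared exon length alone, Onecut1 was at 45.9 ± 25.7 TPM (SD, n = 12).

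**Figure D1:**
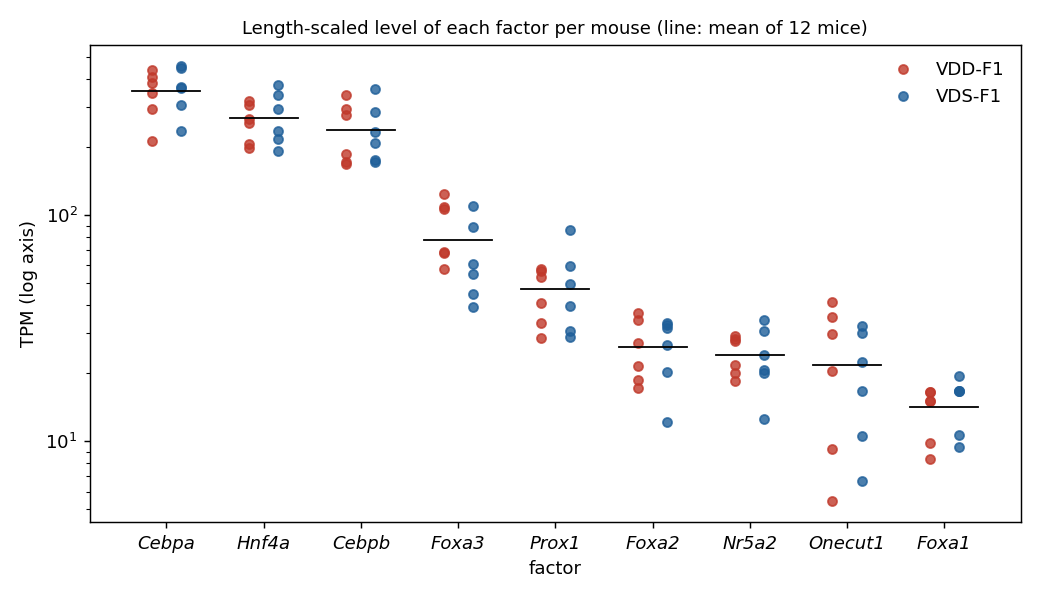
TPM of each factor in each of the 12 mice on a log axis, with VDD-F1 in red, VDS-F1 in blue and the mean as a line. Cebpa, Hnf4a and Cebpb lie above the others, and Onecut1 spreads from 5.47 to 41.3 TPM.

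VDD-F1 and VDS-F1 livers were compared to ask whether these genes differed in adulthood with the diet of the mother. Values per mouse are CPM (counts per 1000000 counts) after TMM scaling, in the order of replicates 1 to 6. No member reached an adjusted p under 0.05 in the edgeR quasi-likelihood fit (Benjamini-Hochberg over all genes), a threshold that 0.0402% of all genes passed. 8 of the 9 were lower and 1 was higher in VDD-F1, while 49.2% of all genes were lower. One member, Hnf4a, had an unadjusted p under 0.05, as did 15.8% of all genes. The median log2-fold change of the members was -0.22, beside 0.00413 over all genes. DESeq2 and voom also called 0 members, where they called 4.05% and 4.74% of all genes. They gave 1 and 3 members an unadjusted p under 0.05, as they did 16.7% and 22.8% of all genes. In no member were all VDD-F1 mice on one side of all VDS-F1 mice, as they were in 1.18% of all genes. In bulk liver, fewer hepatocytes and less RNA per hepatocyte cannot be told apart.

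Hnf4a (ENSMUSG00000017950, chr2:163506808-163572910, plus strand, 13 merged exons) measured 732, 530, 649, 530, 601 and 688 CPM in VDD-F1 and 643, 571, 902, 846, 867 and 723 CPM in VDS-F1. Every VDD-F1 mouse was below the VDS-F1 median of 784 CPM, and VDS-F1 replicates 1, 2 and 6 lay within the VDD-F1 range. Means of 622 ± 83.1 and 759 ± 134 CPM (SD, n = 6) differed by a log2-fold change of -0.29, with a standard error of 0.13 and a 95% confidence interval of -0.57 to -0.01. The adjusted p was 0.301, and the exact two-sided permutation test over all splits of the mice gave p = 0.0736. On the TPM scale, which has no TMM scaling, the means were 259 ± 49.4 and 276 ± 73.4 TPM with merged exon length. With coding length they were 533 ± 56.2 and 642 ± 123 TPM. Library size as the only scaling, also without TMM, gave a log2-fold change of -0.25 (edgeR adjusted p = 0.390).

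Cebpa (ENSMUSG00000034957, chr7:35119293-35121928, plus strand, a single exon) measured 534, 474, 685, 413, 273 and 408 CPM in VDD-F1. In VDS-F1 it measured 533, 486, 536, 557, 585 and 558 CPM. The VDS-F1 livers were close together and the VDD-F1 livers were not, with coefficients of variation of 6.17% and 29.8%. VDD-F1 replicates 2, 4, 5 and 6 lay below all 6 VDS-F1 mice and replicate 3 above them all. Cebpa differed by -0.22 on the log2 scale (SE 0.17, adjusted p = 0.546).

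Cebpb (ENSMUSG00000056501, chr2:167688915-167690418, plus strand) had medians of 187 CPM in VDD-F1 and 215 CPM in VDS-F1, with ranges of 105 to 253 and 120 to 295. VDS-F1 replicates 2, 5 and 6 were above every VDD-F1 mouse, and the other VDS-F1 mice were below the VDD-F1 median. The log2-fold change was -0.25 (SE 0.25, 95% confidence interval -0.79 to 0.29, adjusted p = 0.676). A decrease to 0.58-fold and an increase to 1.23-fold are both within that interval.

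Foxa1 (ENSMUSG00000035451, chr12:57540628-57546916, minus strand) measured 27.3, 20.6, 37.1, 17.3, 13.5 and 22.4 CPM in VDD-F1 and 29.0, 15.8, 30.3, 25.8, 33.2 and 38.1 CPM in VDS-F1. The groups overlapped, and the lowest mouse was VDD-F1 replicate 5, as for Cebpa. Foxa1 differed by -0.32 on the log2 scale (SE 0.23, adjusted p = 0.538).

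Foxa2 (ENSMUSG00000037025, chr2:148042877-148046969, minus strand) ranged from 19.8 to 55.1 CPM around a VDD-F1 median of 27.8, and from 21.5 to 52.9 CPM around a VDS-F1 median of 34.2. Its groups overlapped over nearly the whole range, and the log2-fold change was -0.14 (SE 0.26, adjusted p = 0.836).

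Foxa3 (ENSMUSG00000040891, chr7:19013284-19023538, minus strand) was the one member whose estimate was higher in VDD-F1. It measured 69.6, 104, 79.5, 115, 67.2 and 98.7 CPM in VDD-F1 and 100, 56.3, 67.7, 84.2, 74.8 and 62.8 CPM in VDS-F1. The groups overlapped, with VDS-F1 replicate 1 among the high VDD-F1 mice. The log2-fold change was 0.26 (SE 0.16, 95% confidence interval -0.08 to 0.60, adjusted p = 0.455).

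Onecut1 (ENSMUSG00000043013, chr9:74861921-74891781, plus strand) varied the most among the members. It measured 11.2, 69.9, 82.8, 44.5, 18.5 and 65.1 CPM in VDD-F1 and 19.5, 13.8, 72.8, 42.7, 64.1 and 85.4 CPM in VDS-F1. VDD-F1 replicates 1 and 5 and VDS-F1 replicates 1 and 2 were at or below 19.5 CPM, and the other 8 mice were at or above 42.7 CPM. The highest mouse exceeded the lowest 7.65-fold, and the within-diet SD of 1.12 on the log2 scale was larger than that of 98.1% of the genes tested, whose median SD was 0.26. The log2-fold change was -0.03 with a 95% confidence interval of -1.09 to 1.03 (adjusted p = 0.988), an interval that spans 0.47-fold to 2.05-fold.

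Prox1 (ENSMUSG00000010175, chr1:190118035-190170714, minus strand) measured 235, 183, 190, 182, 236 and 107 CPM in VDD-F1. In VDS-F1 it measured 326, 209, 183, 233, 227 and 177 CPM. The groups overlapped apart from VDD-F1 replicate 6, the lowest, and VDS-F1 replicate 1, the highest. Prox1 differed by -0.26 on the log2 scale (SE 0.19, adjusted p = 0.523). Prox1 also marks lymphatic endothelium. Of the other lymphatic markers, Reln, which is also on the list of stellate cell markers, ranged from 115 to 218 CPM. Flt4 ranged from 36.7 to 55.1 CPM, while Pdpn and Mmrn1 reached at most 1.53 and 1.15 CPM. The part of lymphatic cells in the Prox1 value was not tested.

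Nr5a2 (ENSMUSG00000026398, chr1:136842571-136960448, minus strand) had nearly equal medians of 75.3 CPM in VDD-F1 and 75.2 CPM in VDS-F1. The ranges were 52.7 to 82.6 and 66.2 to 91.6 CPM and overlapped for most mice. The log2-fold change was -0.12 (SE 0.12, 95% confidence interval -0.39 to 0.14, adjusted p = 0.671). Of the 9 members it had the smallest standard error.

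**Figure D2:**
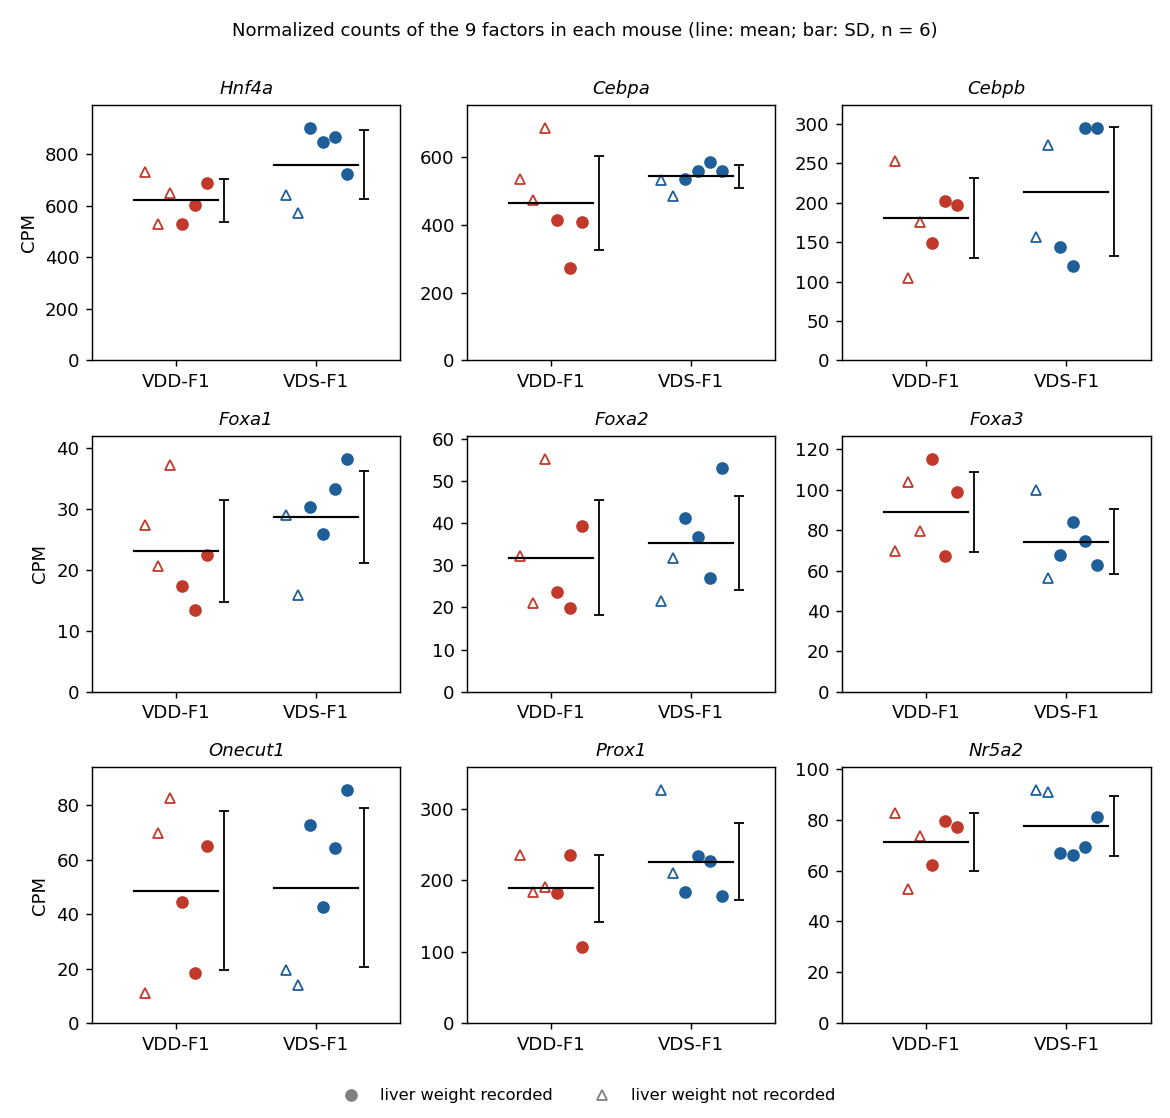
CPM of each factor in each mouse, by maternal diet. Filled circles are mice with a recorded liver weight and open triangles mice without one, lines are means and bars SD (n = 6). No factor separates all VDD-F1 from all VDS-F1 mice. In the filled circles Hnf4a, Cebpa and Foxa1 are lower in VDD-F1.

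The study's supplement records a liver weight for 7 of the mice (VDD-F1 replicates 4 to 6 and VDS-F1 replicates 3 to 6) and none for the other 5. The labels do not call these sets batches. The same comparison was made within each set, because the sets gave very different counts of genes. The split was thus chosen with its outcome known, and adjusted p-values within a set do not allow for that choice. In the 7 mice with a recorded weight, 5.12% of all genes were lower and 5.85% higher in VDD-F1 at an adjusted p under 0.05. In the 5 mice without one, 0.00% passed in edgeR, and 3.79% had an unadjusted p under 0.05.

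Among the 7 mice, 3 members were lower in VDD-F1 past the threshold, namely Hnf4a, Cebpa and Foxa1. Hnf4a was at 606 ± 79.4 CPM (SD, n = 3) in VDD-F1 and at 834 ± 77.9 CPM (SD, n = 4) in VDS-F1. Its log2-fold change was -0.46 (SE 0.11, edgeR adjusted p = 0.0198). Cebpa was at 365 ± 79.8 and 559 ± 20.1 CPM, a log2-fold change of -0.62 (SE 0.13, adjusted p = 0.0114). Foxa1, the pioneer factor with the largest of the 3 differences, was at 17.7 ± 4.50 and 31.9 ± 5.17 CPM, a log2-fold change of -0.84 (SE 0.18, adjusted p = 0.0114). For each of these 3 genes every VDD-F1 mouse of the set was below every VDS-F1 mouse, as for 11.4% of all genes.

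The other 6 members did not pass the threshold in these 7 mice. Foxa2 had a log2-fold change of -0.51 (SE 0.25, adjusted p = 0.222) and Onecut1 of -0.63 (SE 0.34, adjusted p = 0.273). Foxa3 was again estimated higher, by 0.37 (SE 0.16, adjusted p = 0.176). Cebpb, Prox1 and Nr5a2 were at -0.22, -0.23 and 0.05 on the log2 scale. In all, 7 of 9 members were estimated lower, beside 49.0% of all genes, and the median over the members was -0.46, beside 0.00763 over all genes.

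In the 5 mice without a recorded weight, 0 members passed the threshold and 0 had an unadjusted p under 0.05 in edgeR. Hnf4a, Cebpa and Foxa1 had log2-fold changes of 0.07 (SE 0.21), 0.15 (SE 0.21) and 0.33 (SE 0.33), so their estimates lay on the other side of zero. Onecut1 was at 54.6 ± 38.2 CPM (SD, n = 3) in VDD-F1 and 16.7 ± 4.02 CPM (SD, n = 2) in VDS-F1, a log2-fold change of 1.71 (SE 0.75). Cebpb, Prox1 and Nr5a2 were estimated lower in VDD-F1, at -0.27, -0.40 and -0.39, which is 3 of 9 members beside 48.2% of all genes. Of these only Nr5a2 had every VDD-F1 mouse below every VDS-F1 mouse, as did 9.50% of all genes.

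Whether the diet difference itself differed between the sets was tested with an interaction term. No member passed an adjusted p under 0.05, as 0.0883% of all genes did, and 4 had an unadjusted p under 0.05, as 9.01% of all genes did. These were Cebpa (-0.76, SE 0.25, edgeR adjusted p = 0.353), Foxa1 (-1.18, SE 0.39, adjusted p = 0.364), Onecut1 (-2.34, SE 0.85, adjusted p = 0.411) and Hnf4a (-0.53, SE 0.21, adjusted p = 0.496), each as the log2 difference of the recorded set minus the other. The calls in the 7 mice are therefore not shown to be particular to that set. With set as a covariate over all 12 mice, 0 members passed.

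**Figure D3:**
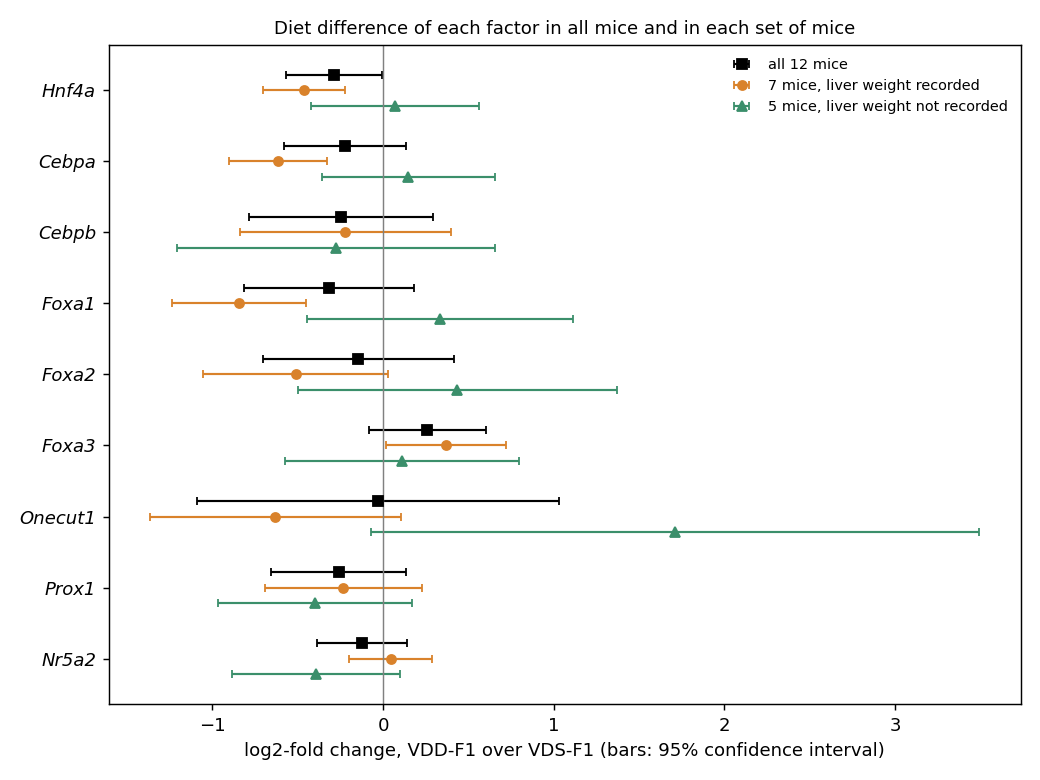
Log2-fold change of each factor, VDD-F1 over VDS-F1, with its 95% confidence interval in all 12 mice (black), in the 7 mice with a recorded liver weight (orange) and in the other 5 (green). The orange intervals of Hnf4a, Cebpa and Foxa1 lie wholly below 0 and the green ones cross it.

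Other transcripts moved with these 3 members in the same 7 mice. Genes of the circadian clock, which follow the hour of sampling and feeding, differed strongly. Nr1d1, a repressor of the clock, was at 51.1, 57.2 and 56.5 CPM in the VDD-F1 mice and at 214, 227, 200 and 58.1 CPM in the VDS-F1 mice (log2-fold change -1.67, SE 0.35, edgeR adjusted p = 0.0106). Dbp, Per2 and Rgs16 were also lower past the threshold, at -3.64, -1.32 and -5.94, making 4 of 10 clock and feeding genes. In the other 5 mice Nr1d1 was at 145, 132 and 170 CPM in VDD-F1 and at 49.8 and 57.7 CPM in VDS-F1. Its log2-fold change there was 1.47, with Dbp at 3.14, Rgs16 at 0.88 and Per2 at -0.74, none past the threshold. Among the 7 mice, VDS-F1 replicate 6 was like the 3 VDD-F1 mice in Nr1d1. Its Hnf4a was at 723 CPM, its Cebpa at 558 CPM and its Foxa1 at 38.1 CPM, each above those 3 mice. These are values of a single mouse. The part of sampling time in the result was not tested, and no sampling hour is given in the sources used here.

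Markers of cell types differed in the same mice. The 12 secreted-protein and enzyme genes used as hepatocyte markers summed to 127429 to 130028 CPM in VDD-F1 and 100304 to 108992 CPM in VDS-F1, with 6 called higher and 0 lower. Hpx (hemopexin) led them at 0.89 (SE 0.09, edgeR adjusted p = 0.000116), and Alb (albumin) was at 0.36 (SE 0.08, adjusted p = 0.0128). The summed hepatocyte markers were thus higher in the mice in which 3 hepatocyte factors were lower. The 7 cholangiocyte markers summed to 60.4 to 75.7 against 29.3 to 44.8 CPM with 2 called higher, and the 8 stellate cell markers to 523 to 626 against 421 to 521 CPM with 3 called higher and 1 lower. The 8 Kupffer cell and macrophage markers summed to 136 to 187 against 205 to 274 CPM with 4 called lower. Sinusoidal endothelial markers summed to 442 to 485 against 482 to 584 CPM with 2 of 8 called lower. Lymphocyte markers summed to 10.2 to 13.3 against 8.66 to 9.36 CPM. Their part in the result was not tested.

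**Figure D4:**
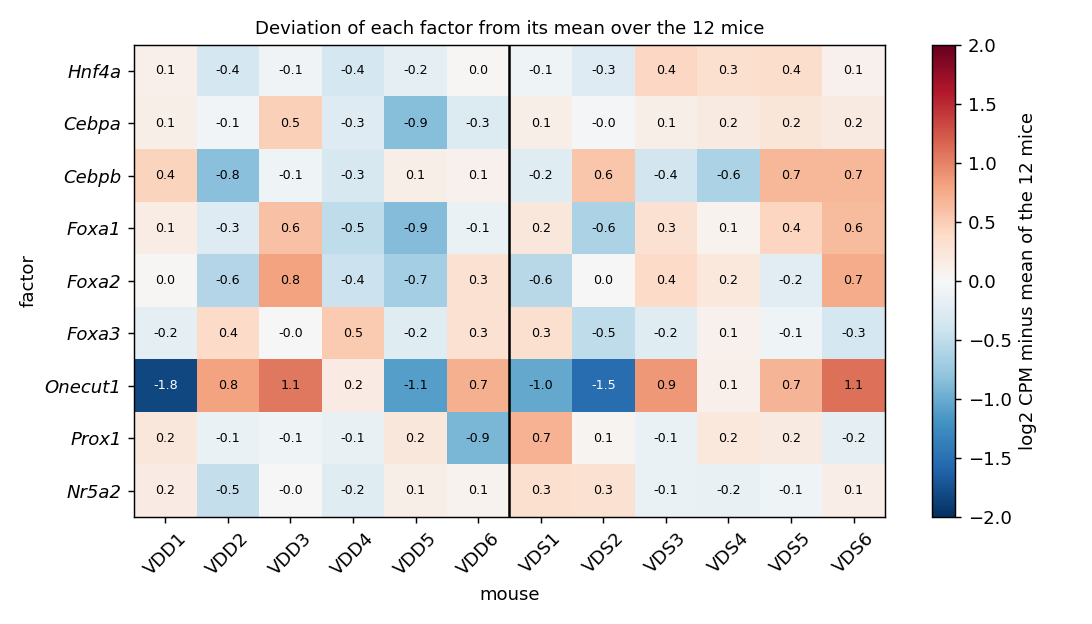
Log2 CPM of each factor in each mouse minus the mean of the 12 mice, printed in each cell, with red above and blue below the mean. VDD-F1 replicate 5 is low in Cebpa and Foxa1, and Onecut1 splits the mice into a low and a high group that crosses both diets.

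The members did not vary as one block. For each member the genes with the most similar deviations from the diet mean were listed among the 8622 genes whose mean count reached 100, as a description over 12 mice that share libraries and scaling. Foxa1 and Cebpa were the most alike of the member pairs (Pearson r = 0.81, Spearman rho = 0.80, and r = 0.80 or 0.67 without the 2 mice farthest from the median of Foxa1 or of Cebpa). Cebpa ranked 8 among all genes in likeness to Foxa1, and Foxa1 ranked 30 in likeness to Cebpa. Hnf4a was most like Mgme1, a mitochondrial exonuclease (r = 0.95, rho = 0.94), followed by Mbd1 and Apex2. Nr5a2 was most like Ddhd1 (r = 0.94), with Rabep1 (r = 0.91) also among the closest, and Cebpb was most like Mbtps1 (r = 0.92), followed by Slc7a6os and Fgd4.

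The likeness of Cebpa to Urgcp (r = 0.91), Tmem134 and Glrx5 rested in part on VDD-F1 replicates 3 and 5, since r fell to 0.69, 0.34 and 0.58 without them. Onecut1 was most like Gpx1, Ces1g and Agpat5 (r = 0.89, 0.88 and 0.88, and 0.75, 0.82 and 0.82 without the 2 farthest mice). Foxa1 was most like Zbtb17, Triobp and Ddo (r = 0.90, 0.87 and 0.86), and Foxa2 like Tbcb, Snf8 and Ndufa12 (r = 0.91, 0.88 and 0.88). Foxa3 was most like Ccn1, Rbmxl1 and Nrf1 (r = 0.86, 0.85 and 0.83), and Prox1 like Zc3h11a, Pabpc1 and Farp1 (r = 0.86 for each, and 0.79, 0.76 and 0.59 without the 2 farthest mice).

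The annotation places other genes over several members. Hnf4aos, an antisense RNA at chr2:163493807-163541720 that covers the upstream Hnf4a start but shares no exon base with Hnf4a, measured 0.757, 0.783, 2.18, 1.78, 1.42 and 2.0 CPM in VDD-F1. In VDS-F1 it measured 2.71, 1.95, 5.09, 2.65, 3.19 and 2.86 CPM. Only VDS-F1 replicate 2 reached into the VDD-F1 range. Hnf4aos differed by -1.04 on the log2 scale (SE 0.31), from 12 to 74 counts per library, with an edgeR adjusted p of 0.129 and a DESeq2 adjusted p of 0.0330. The exact permutation test on its own gave p = 0.00649. The estimates were -0.98 in the 7 mice with a recorded weight and -0.93 in the other 5, where Hnf4a itself was at -0.46 and 0.07.

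The kit and the counted column keep the strands apart, so Hnf4a and Hnf4aos reads were counted separately, with 92.7% to 95.8% of stranded fragments on the counted strand. Prox1os (antisense to Prox1) was at -0.36, Gm45091 (antisense to Cebpa) at 0.53 and Tmem189 (antisense to Cebpb) at -0.38, with adjusted p of 0.536, 0.474 and 0.415. In the 7 mice with a recorded weight Tmem189 was lower in VDD-F1 past the threshold, at -0.83 (SE 0.14, edgeR adjusted p = 0.00314), while Cebpb was at -0.22. Gm28172, within Prox1 on the opposite strand, had at most 7 counts, and Gm25881 within Hnf4a and Gm20649 over Onecut1 had 0 counts in every library.

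**Figure D5:**
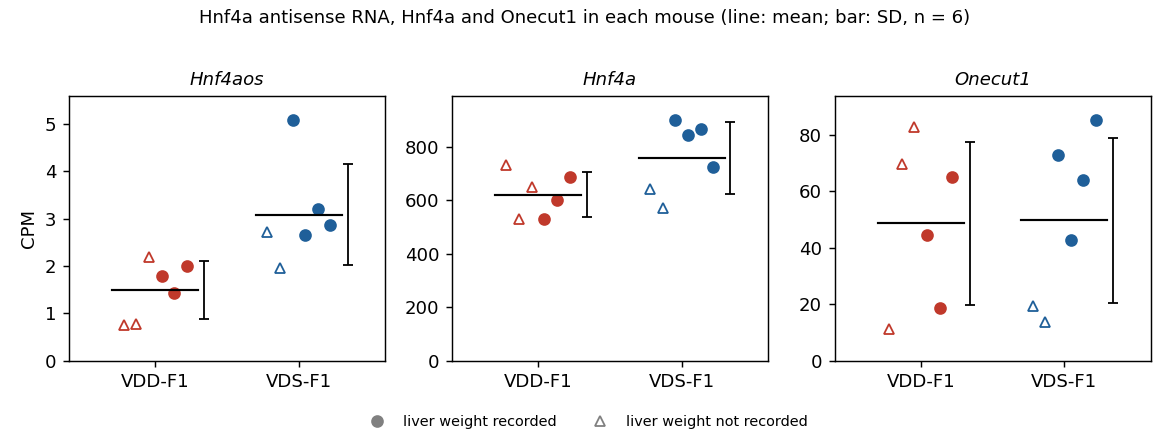
CPM of Hnf4aos, Hnf4a and Onecut1 in each mouse by maternal diet, with means as lines, SD as bars (n = 6), filled circles for mice with a recorded liver weight and open triangles for the others. Hnf4aos is lower in VDD-F1 apart from 1 overlapping VDS-F1 mouse, Hnf4a overlaps more, and the Onecut1 groups coincide.

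Other transcription factors of the liver were read from a list of 28 genes, of which 26 were tested. Of these, 5 were estimated higher and 21 lower in VDD-F1, and their median was -0.09 on the log2 scale. Over all 12 mice 0 passed the threshold in edgeR and 1 in DESeq2, and at an unadjusted p under 0.05 edgeR had 1 higher and 3 lower. Atf5 was at 0.37 (SE 0.13, edgeR adjusted p = 0.181), Tbx3, which marks pericentral hepatocytes, at -0.74 (SE 0.29, adjusted p = 0.235) and Nr1i3, the xenobiotic receptor CAR, at -0.83 (SE 0.35, adjusted p = 0.273).

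In the 7 mice with a recorded weight, 8 of these 26 factors were lower past the threshold and 0 were higher. Nr1i3 was at -1.68 (SE 0.16, edgeR adjusted p = 7.61e-05) and Tbx3 at -1.10. Others, named after their values were seen, were the nuclear receptors Rxra (-0.39), Nr1h4 (-0.63, the bile acid receptor FXR) and Ppara (-0.71, the fatty acid receptor), with Creb3l3 (-0.34) and Onecut2 (-0.37).

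The 9 co-regulators that bind the members, among them the co-repressor Ncor1 and the acetyltransferase Ep300, included 8 lower and 1 higher, with 0 past the edgeR threshold over all mice or in the 7. Over all mice DESeq2 also called 0, and 0 had an unadjusted p under 0.05 in edgeR. Ncor1 was at -0.21 (SE 0.10, edgeR adjusted p = 0.331).

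Known targets of the members did not follow a single direction. Of 15 Hnf4a targets, 11 were lower and 4 higher, 0 passed in edgeR over all mice, and 3 passed in DESeq2. Cyp7b1, an oxysterol hydroxylase of bile acid synthesis, had the largest difference, 81.1 ± 46.6 CPM against 260 ± 74.1 (SD, n = 6), which is -1.68 on the log2 scale (SE 0.41). Its edgeR adjusted p was 0.0918 and its DESeq2 adjusted p 0.0144. F7 (coagulation factor VII) was at -0.30 (SE 0.09, edgeR adjusted p = 0.133, DESeq2 adjusted p = 0.0447), and Apoa2 at -0.31 (SE 0.15, adjusted p = 0.334). In the 7 mice 4 targets were lower past the threshold, among them Cyp7b1, Cyp8b1 and Apoa2, and 1 was higher, F9.

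Of 11 C/EBP targets, 7 were lower and 4 higher, with 0 past the edgeR threshold. Il1rn, an acute-phase antagonist of interleukin-1, was at 1.5 on the log2 scale (SE 0.45, edgeR adjusted p = 0.129, DESeq2 adjusted p = 0.0277). Albumin was at 0.24 (SE 0.13, adjusted p = 0.379) and Cyp2d22 at -0.29 (SE 0.12, adjusted p = 0.255). Of 8 Foxa targets, 5 were higher and 3 lower, with Trf (transferrin) at 0.45 (SE 0.19, adjusted p = 0.279). In the 7 mice 2 C/EBP targets were called in each direction and 3 Foxa targets were called higher, while Cebpa and Foxa1 were lower.

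Of 8 Nr5a2 and Prox1 targets, 4 were higher and 4 lower. The sterol transporters Abcg5 and Abcg8 were at 0.93 (SE 0.24, edgeR adjusted p = 0.0969) and 0.71 (SE 0.19, adjusted p = 0.100), and both passed in DESeq2. Cyp8b1, the sterol hydroxylase that sets the bile acid mix, was at -0.59 (SE 0.31, adjusted p = 0.374). Nr5a2 itself was at -0.12, and none of these lists was tested as a set.

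Over all 12 mice, the summed hepatocyte markers ranged from 116390 to 135898 CPM in VDD-F1 and from 100304 to 124176 CPM in VDS-F1, with 9 of 12 estimated higher. Cholangiocyte marker sums were 24.4 to 123 and 29.3 to 52.0 CPM, and of the 6 tested all were estimated higher. Stellate cell sums were 415 to 940 and 421 to 556 CPM, with 7 of 8 higher, and Col3a1 and Col1a1 were at 1.78 and 2.27 (edgeR adjusted p = 0.0855 and 0.0883, DESeq2 adjusted p = 0.00755 and 0.00825), and at 2.16 and 2.67 in the mice with a recorded weight (edgeR adjusted p = 1.02e-06 and 3.09e-05). The marker estimated lower, Ecm1, was at -0.72 (edgeR adjusted p = 0.100, DESeq2 adjusted p = 0.0138), and at -1.22 in the mice with a recorded weight (edgeR adjusted p = 6.58e-05). Sinusoidal endothelial sums were 394 to 485 and 376 to 584 CPM with 7 of 8 lower, Kupffer and macrophage sums 136 to 350 and 185 to 346 CPM with 6 of 8 lower, lymphatic sums (Prox1 among them) 277 to 456 and 374 to 504 CPM, and lymphocyte sums 4.82 to 29.4 and 8.66 to 12.9 CPM. Neutrophil sums were at most 7.23 CPM, and pancreatic acinar sums at most 0.694 CPM with Amy2a5 at 0 in every library. Foxa2, Onecut1, Prox1 and Nr5a2 are also expressed outside hepatocytes, in bile ducts, endothelium or pancreas, and the part of these cells in their values was not tested.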

How the data were processed

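The libraries were ribosome-depleted total RNA, 1 per mouse. Per the paper's methods, the authors trimmed the reads and aligned them to mm10 (GRCm38) with STAR and a GENCODE annotation. The deposited files hold the raw count of fragments for each gene in 3 columns, unstranded and by strand. The STAR version is not given in the sources used here. The reverse-strand count was used, which held 92.7% to 95.8% of the stranded counts. Rows that name no gene held 37.4% to 50.3% of the 25897868 to 36403413 fragments and were left out, which left 14275793 to 20815066 counts per library. These depths gave the members 177 to 16266 counts per library, and the spread between mice limits their precision. GENCODE M21 on GRCm38 gave positions and lengths for 52489 of 52636 genes.

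Genes whose mean count reached 12 were tested with edgeR 4.0.16 (TMM, quasi-likelihood, legacy form). DESeq2 (the study's tool, run here in version 1.42.0) and voom with sample weights were alternatives, with leaving out each mouse, other filters and scalings, and each set of mice. The scripts were tested on simulated data. Log2 CPM used a prior count of 2. Permutation tests were exact and two-sided, and cannot give a p under 0.00216. The members and gene lists were chosen with earlier results of these data known. The rule for named genes allowed from each list up to 4 genes with the smallest unadjusted p and any called gene, with genes that overlap a member and 3 genes most like each member. Not all of these are named, since most marker lists are given as sums and some items are not reported here, and a few other genes were named after their values were seen. Of the listed genes, 1 (Ccl21a) had no unique match. TPM used merged exon length.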

Additional observations from a re-analysis of the deposited data

How the results depend on the processing

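Of 225 alternative values of the members' diet differences, 208 kept the direction and the side of the threshold, 3 passed it (Hnf4a, Cebpa and Foxa1 in the mice with a recorded weight) and 14 changed sign. Onecut1 changed sign to 0.023 with library size as the only scaling, which moved the median of all genes to 0.05, to 0.27 with set of mice as a covariate and to 1.71 in the mice with no recorded weight. In those mice Hnf4a (0.071), Cebpa (0.15), Foxa1 (0.33) and Foxa2 (0.44) also changed sign, leaving 3 members lower, and Nr5a2 was at 0.045 in the recorded mice. Leaving out 1 mouse at a time gave -0.24 to 0.20 for Onecut1, whose sign changed without VDD-F1 replicate 1 or 5 or VDS-F1 replicate 3, 5 or 6, and -0.37 to 0.0083 for Foxa2, where only the fit without VDS-F1 replicate 6 changed the sign, 6 to 8 members lower and 0 called. Without 1 mouse, the estimate of Cebpa ran from -0.37 (without VDD-F1 replicate 3) to -0.11 (without VDD-F1 replicate 5), as did Foxa1 from -0.50 to -0.21 without the same mice. The smallest estimates were -0.13 for Cebpb (without VDD-F1 replicate 2 or VDS-F1 replicate 5 or 6, and -0.16 without VDS-F1 replicate 2), -0.13 for Prox1 (VDS-F1 replicate 1, and -0.14 without VDD-F1 replicate 6), -0.051 for Nr5a2 (VDD-F1 replicate 2, and -0.070 and -0.073 without VDS-F1 replicates 1 and 2) and 0.17 for Foxa3 (VDD-F1 replicate 4), while Hnf4a stayed between -0.36 and -0.23. In voom Cebpa was at -0.40, Foxa1 at -0.49, Foxa2 at -0.29, Onecut1 at -0.34, Cebpb at -0.056 and Nr5a2 at -0.017. The members' adjusted p ranged from 0.0114 to 0.999 over the settings.

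The count of all genes called (5 in edgeR, all 5 DEGs with a log2-fold change past 1) depended on the tool. It was 504 with 253 DEGs in DESeq2, 590 with 252 in voom, 2 with 2 in the robust fit, 20 with 17 in the newer form, 85 with 70 without a filter, 28 with 21 with set as a covariate, 1366 with 536 in the recorded mice and 0 with 0 in the others. Without 1 mouse it ranged from 0 to 420, with 0 to 260 DEGs: 0 without VDD-F1 replicate 4, 5 or 6 or VDS-F1 replicate 3, 4 or 5, 420 without VDD-F1 replicate 1 and 140 without VDD-F1 replicate 3. Genes called in the other lists numbered 0 in edgeR, 10 in DESeq2, 14 in voom, 3 without a filter, 1 with the replicate block, 40 in the recorded mice and 0 to 7 without 1 mouse. The diet-by-set term called 11 genes in edgeR and 138 in DESeq2, and the set term 306 and 581. Same-numbered mice of the 2 groups did not deviate together (r from -0.08 to 0.10), so the numbers do not pair them. A replicate block gave 19 genes with 17 DEGs and 0 members. The causes of these changes were not tested. Low counts leave fold changes imprecise, which touches Gm45091 (4 to 26 counts per library) and Hnf4aos (12 to 74) more than the members. With 5 or 7 mice per set, each estimate rests on few livers. The length choice left the mean of Cebpa highest and that of Foxa1 lowest, but coding length put Prox1 (121 TPM) above Foxa3 (99.9) and Nr5a2 (57.0) above Foxa2 (30.7), and the unshared length for Onecut1 was chosen after seeing the data.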
